A study of Rattus norvegicus with 2 samples.

Results

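The sarcomeric myosins are the motor proteins of the muscle thick filament, and the genes described here encode their heavy and light chain isoforms. A list of 10 gene symbols was looked up in the platform annotation, 5 for heavy chains (Myh6, Myh7, Myh7b, Myh3 and Myh8) and 5 for light chains (Myl1, Myl3, Myl4, Myl2 and Myl7). Of these, 9 had a probe set, among 16592 probe sets with a gene symbol and 19239 in all, and Myl4 was not analysed here. In 8 of the 9 the mean level passed a filter at the 30th percentile of named genes (log2 4.85), and Myh8 lay under it. On the array labelled Mef2d shRNA, Myl1 was 1.79-fold and Myh3 1.76-fold higher than on that labelled lacZ shRNA, Myh7 was 1.31-fold higher and Myh6 was 1.37-fold lower. The Mef2d transcript itself was higher under the Mef2d shRNA label, so these directions hold for the labels as given.

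The cells were neonatal rat ventricular myocytes, cultured heart muscle cells from the ventricles of rat pups 1 to 2 days old. They recovered for 24 hours in medium with 10% fetal bovine serum, moved to a low-serum medium with 0.5x Nutridoma (a serum replacement), and were then transduced with an adenovirus. In 1 group the virus carried a short hairpin RNA (shRNA) targeting Mef2d, a muscle transcription factor gene, and in the other an shRNA targeting lacZ, a bacterial gene used as the negative control. Virus was thus added in both groups, the share of cells transduced is not known here, and cultures without virus were not analysed here. RNA was taken 3 days later and hybridised to 1 Affymetrix array per group. The study's design text gives 6 biological replicates pooled on each array, while the extraction protocol speaks of 3 per condition after pooling and of myotubes. The labels do not name the rat strain. With 1 array per group there is no replicate error, so no p-value is given, and every value is only as precise as 1 array allows.

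The targeted transcript went against its label. Mef2d had a log2 level of 8.22 with the lacZ shRNA label and 8.94 with the Mef2d shRNA label, a difference of 0.71. Which part of the transcript its probes cover is not known here. The text therefore speaks of the lacZ-labelled array and the Mef2d-labelled array, and exchanged labels would turn every direction. Levels are the authors' log2 RMA values, and a difference is the level on the Mef2d-labelled array minus that on the lacZ-labelled array. Over the 11614 named genes that passed the level filter the median difference was -0.01. In 20 bins of genes of similar level, the robust SD of the differences (a scaled median absolute deviation) ran from 0.11 to 0.21, a scatter in which noise and real differences are mixed and which does not stand for replicate error. All 10 cardiomyocyte marker genes had levels of at least 8.45 on both arrays. Fibroblast markers had levels from 6.44 to 12.43 over both arrays, with Col1a1 at 12.16 on both. Smooth muscle markers had levels from 5.97 to 11.07. Among them Tagln was at 11.07 on the lacZ-labelled array and 10.85 on the other, and Myh11 at 6.18 and 5.97. The RNA was thus not shown to come from myocytes alone.

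A myosin molecule of muscle is built from a pair of heavy chains, each of which carries an essential and a regulatory light chain on its lever arm. The heavy chain holds the ATPase that sets how fast the filament slides, and the light chains stiffen and tune the lever. In rodent ventricles the slower beta heavy chain, encoded by Myh7, is the main form before birth, and the faster alpha chain, encoded by Myh6, replaces it after birth. Overload and loss of thyroid hormone shift the adult ventricle back towards Myh7. Light chains also differ by chamber and age, with Myl2 and Myl3 in the ventricle, Myl7 and Myl4 in the atrium and in the early heart, and Myl1 in fast skeletal muscle.

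**Figure D1:**
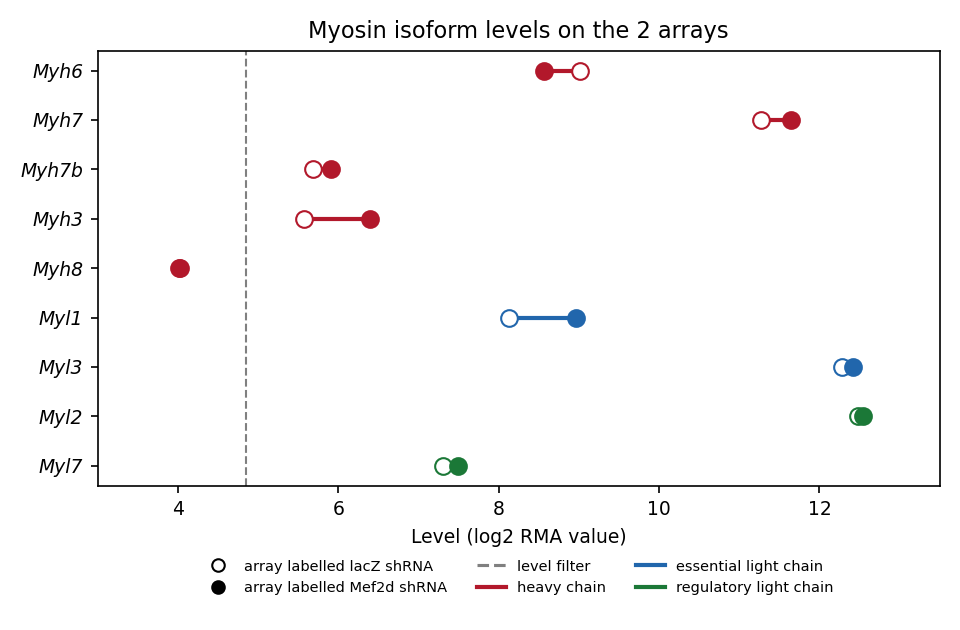
Level of each measured myosin isoform gene on the horizontal axis (log2 RMA value), with an open point for the lacZ-labelled array and a filled point for the Mef2d-labelled array. The long gaps are those of Myl1 and Myh3 to the right and of Myh6 to the left, and Myh8 lies left of the dashed line of the level filter (4.85).

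Both main heavy chains of the heart differed between the arrays, in opposite directions. The level of Myh6 (probe set 29556_at) was 9.02 on the lacZ-labelled array and 8.56 on the Mef2d-labelled array, a log2 difference of -0.46. Of the 11614 tested genes, 158 (1.4%) were at least as much lower. Myh7 (probe set 29557_at) had levels of 11.27 and 11.65 in the same order, a log2 difference of 0.39, and 392 tested genes (3.38%) were at least as much higher. Neither gene reached 1.5-fold. In units of the robust SD of genes of similar level, Myh6 lay -2.89 and Myh7 3.46 from the centre of its bin.

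The change of the ratio between isoforms from 1 array to the other can be given without setting the level of 1 probe set against another. It is the difference of 1 gene minus that of the other. Whether both probe sets respond equally to a change was not tested. The ratio of Myh7 to Myh6 was 1.79-fold higher on the Mef2d-labelled array, a shift of 0.84 on the log2 scale. Under quantile normalization this shift was 0.83, and with a loess trend subtracted it was 0.84. Centring each array on its median cannot change such a shift. The paralogs Myh6 and Myh7 are neighbours on rat chromosome 15 with no protein-coding gene between them in the reference assembly GRCr8, and their sequences are closely alike. Whether probes of 1 gene also bind transcripts of the other was not tested.

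The 300 bases around the annotated starts of Myh6 and Myh7 are shown because these neighbours moved apart. The sequences are RefSeq's, in build GRCr8, from 250 bases before to 50 bases after a start. In these and the windows printed further on, capitals mark matches, on either strand, to 5 motifs of muscle promoters, none of which overlap here. The motifs are CANNTG (the E box), CATTCC (the core of the MCAT element bound by TEAD factors), TATAAA (the TATA box), the MEF2 consensus and the CArG box.
Myh6, chr15:32411648-32411947, minus strand: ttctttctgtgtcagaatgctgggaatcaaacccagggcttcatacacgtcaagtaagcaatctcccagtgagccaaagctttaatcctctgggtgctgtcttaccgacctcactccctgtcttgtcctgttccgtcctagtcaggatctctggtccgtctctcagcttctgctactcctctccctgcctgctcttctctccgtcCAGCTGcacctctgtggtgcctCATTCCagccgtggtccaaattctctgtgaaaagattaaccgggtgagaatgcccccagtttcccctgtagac
Myh7, chr15:32438145-32438444, minus strand: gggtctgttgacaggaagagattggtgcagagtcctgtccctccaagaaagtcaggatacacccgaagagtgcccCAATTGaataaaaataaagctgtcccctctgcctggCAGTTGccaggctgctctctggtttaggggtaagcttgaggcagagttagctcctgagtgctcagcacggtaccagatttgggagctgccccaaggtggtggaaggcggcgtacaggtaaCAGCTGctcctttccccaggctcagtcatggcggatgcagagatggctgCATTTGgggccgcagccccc
The Myh6 window held 1 CANNTG and 1 CATTCC, the latter at positions -23 to -18 counted from the start. The Myh7 window held 4 matches to CANNTG, the last of them after the start at positions 31 to 36, and none to the other motifs. Whether the annotated starts are those used in these cells was not tested. A missing match therefore holds for the printed window only. CANNTG occurs in 72.1% and CATTCC in 14.2% of all 33469 promoter windows of the same length, so these matches describe the sequence only.

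Myh7b encodes a slow-type heavy chain related to the beta chain, at low abundance in heart in mammals. It had a level of 5.69 on the lacZ-labelled array and 5.91 on the Mef2d-labelled array. The log2 difference of 0.22 was 1.31 robust SDs above the centre of its bin, and 11.2% of tested genes were at least as much higher. The ratio of Myh7b to Myh6 shifted by 0.68 on the log2 scale, most of which was the lower Myh6.

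The 3 cardiac heavy chain genes Myh6, Myh7 and Myh7b each host a microRNA inside the gene and on its strand, in the reference table. The mature strands named below are shown because they share most of a seed (bases 2 to 8, in capitals), while their host genes did not share a direction.
rno-miR-208a-3p, in Myh6: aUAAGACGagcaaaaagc
rno-miR-208b-3p, in Myh7: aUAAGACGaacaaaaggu
rno-miR-499-5p, in Myh7b: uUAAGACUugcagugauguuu
The seeds of rno-miR-208a-3p and rno-miR-208b-3p are identical, and that of rno-miR-499-5p differs from them in its last base. The value table had no probe set for any of these microRNAs, so the differences of Myh6, Myh7 and Myh7b are those of the host transcripts. The transcription factor gene Sox6 and the gene Purb are known targets of these microRNAs in mice. Sox6, chosen after its value was seen, had a difference of -0.15, and Purb, named by rule, had a difference of -0.21. Neither was past 1.5-fold or more than 3 robust SDs below the centre of its bin. Other targets are not given here, and whether the microRNAs acted on Sox6 or Purb was not tested.

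Myh3 encodes the embryonic heavy chain of skeletal muscle. Its level was 5.57 on the lacZ-labelled array and 6.39 on the Mef2d-labelled array, a log2 difference of 0.82. Of 11614 tested genes, 24, Myh3 included, were at least as much higher, and it lay 4.50 robust SDs above the centre of its bin. Both levels lie above the filter of 4.85 but in the lower part of the tested range, where RMA compresses differences. Relative to Myh6, Myh3 shifted by 1.28 on the log2 scale, a ratio 2.42-fold higher on the Mef2d-labelled array.

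The other genes of its chromosomal cluster were under the level filter on these arrays. In the reference order on rat chromosome 10, Myh3 is followed by Myh2, Myh1, Myh4, Myh8 and Myh13, which encode heavy chains of adult fast, perinatal and extraocular muscle. Of the 6 genes, Myh3 was the 1 that passed. For the perinatal member Myh8 (probe set 252942_at) the level was 4.03 on the lacZ-labelled array and 4.01 on the other, a difference of -0.03. Myh2 had levels of 4.21 and 4.03, Myh1 of 3.91 and 3.67, and Myh4 of 4.28 and 4.13 in the same order, and Myh13 had a difference of -0.03. The values carry no detection call, so whether these 5 genes were above background was not tested, and no fold is given for them.

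Among light chains, Myl1 stood apart. It encodes the fast skeletal essential light chain in a longer and a shorter form made from separate starts, and in mice the embryonic heart expresses it too. Its level was 8.13 on the lacZ-labelled array and 8.97 on the Mef2d-labelled array. The log2 difference of 0.84 was 5.14 robust SDs above the centre of its bin, and 21 of the 11614 tested genes, Myl1 included, were at least as much higher. Its single probe set (56781_at) does not separate the longer and the shorter form here.

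The windows of Myl1 and Myh3 are shown because both genes were past 1.5-fold in the same direction. Myl1 has a window at each of its annotated starts.
Myl1, upstream start, chr9:75907647-75907946, minus strand: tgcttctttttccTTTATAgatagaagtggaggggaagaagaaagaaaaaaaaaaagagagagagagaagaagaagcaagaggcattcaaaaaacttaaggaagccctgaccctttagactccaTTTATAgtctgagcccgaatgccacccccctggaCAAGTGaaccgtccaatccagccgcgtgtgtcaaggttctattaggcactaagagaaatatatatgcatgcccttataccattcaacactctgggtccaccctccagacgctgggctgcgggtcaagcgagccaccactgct
Myl1, downstream start, chr9:75897750-75898049, minus strand: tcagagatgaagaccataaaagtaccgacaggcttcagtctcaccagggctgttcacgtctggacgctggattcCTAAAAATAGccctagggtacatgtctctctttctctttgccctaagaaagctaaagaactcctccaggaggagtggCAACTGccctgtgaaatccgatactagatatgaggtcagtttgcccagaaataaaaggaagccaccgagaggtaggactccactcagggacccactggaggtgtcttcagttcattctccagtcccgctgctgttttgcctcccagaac
Myh3, chr10:52268935-52269234, plus strand: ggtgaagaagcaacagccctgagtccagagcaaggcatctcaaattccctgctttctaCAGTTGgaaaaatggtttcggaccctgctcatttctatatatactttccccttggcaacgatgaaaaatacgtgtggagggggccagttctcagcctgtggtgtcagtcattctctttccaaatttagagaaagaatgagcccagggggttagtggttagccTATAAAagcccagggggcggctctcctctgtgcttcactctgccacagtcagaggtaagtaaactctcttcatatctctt
The downstream Myl1 window holds the MEF2 consensus at positions -176 to -167. That motif occurs in 0.565% of all 33469 windows, and it occurs in 1 of the 10 windows that the table gives for 9 of the listed genes. The Myh3 window has TATAAA at positions -30 to -25 and 1 CANNTG. The upstream Myl1 window has TATAAA on the opposite strand at positions -237 to -232 and -126 to -121, in a table where 14.2% of windows hold that motif. Myl2 has no entry in the promoter table. A match is a run of letters and does not show that a factor was bound.

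Myl3 encodes the ventricular essential light chain, which slow skeletal fibres also use. It had a level of 12.28 on the lacZ-labelled array and 12.42 on the Mef2d-labelled array, a log2 difference of 0.14. This was 1.10-fold higher, and 20.3% of tested genes were at least as much higher. The ratio of Myl1 to Myl3 was therefore 1.62-fold higher on the Mef2d-labelled array, a log2 shift of 0.70.

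Both regulatory light chains had small differences. Myl2, the ventricular form, had levels of 12.48 on the lacZ-labelled array and 12.54 on the Mef2d-labelled array, a difference of 0.06. Myl7, the atrial form that the early ventricle also expresses, had levels of 7.31 and 7.49, a difference of 0.19. The ratio of Myl7 to Myl2 shifted by 0.13 on the log2 scale. Myl2 lay 0.48 and Myl7 1.00 robust SDs above the centre of its bin. The highest values in the whole table were 12.98 on both arrays, so Myl2 and Myl3 lie close to its upper end, and whether that limits their differences was not tested.

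**Figure D2:**
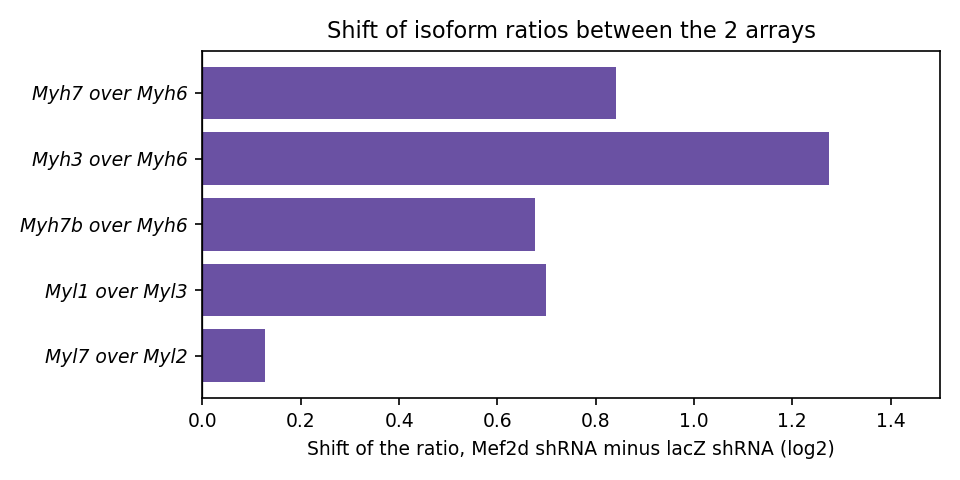
Shift of the ratio between paired isoforms on the horizontal axis (log2 scale, Mef2d-labelled array minus lacZ-labelled array), with a bar per pair and no error because each group has 1 array. The bars run from 0.13 for Myl7 over Myl2 to 1.28 for Myh3 over Myh6.

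Set beside all genes, 2 of the 8 members past the level filter, Myl1 and Myh3, were at least 1.5-fold higher on the Mef2d-labelled array, where 0.844% of the 11614 tested genes were. No member was at least 1.5-fold lower, where 0.534% of tested genes were. The median difference of the 8 members was 0.20, with 7 above 0 and Myh6 below. Over all tested genes 5600 were above 0 and 6000 below. At a 1.3-fold threshold Myh7 joined Myl1 and Myh3 among the higher genes (3.51% of tested genes), and Myh6 was lower (2.47%). The list was drawn up with earlier results of these arrays known, so its count is a description.

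**Figure D3:**
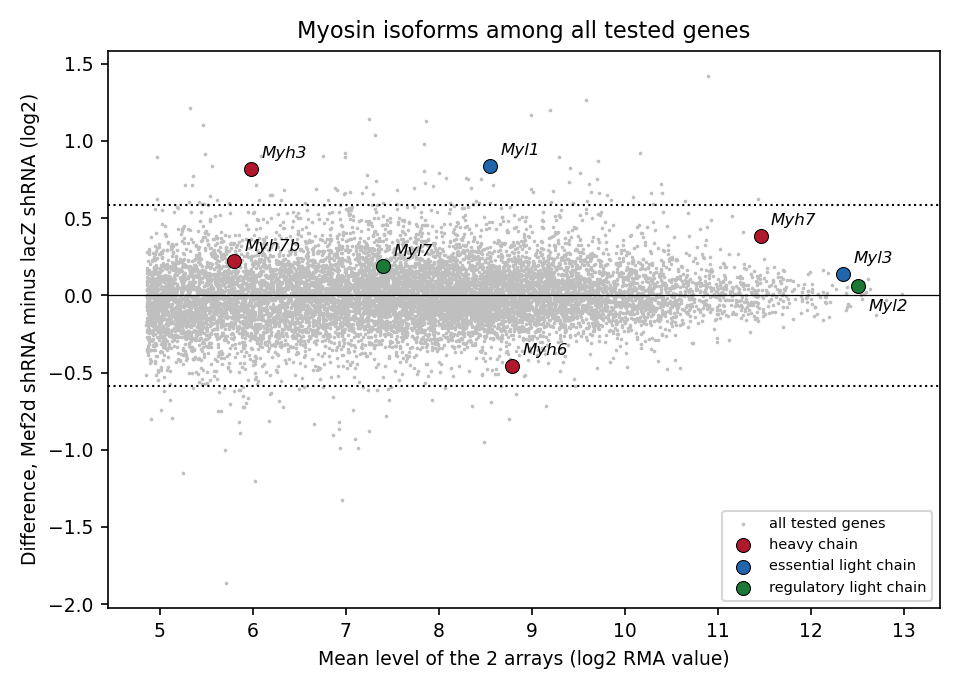
Difference between the arrays (log2, Mef2d-labelled array minus lacZ-labelled array) against the mean level of each gene (log2 RMA value), with grey points for the 11614 tested genes, coloured points for the 8 myosin isoforms past the level filter and dotted lines at 1.5-fold. Myl1 (0.84) and Myh3 (0.82) lie above the upper line, and Myh6 (-0.46) is the only member below 0.

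Other conventional myosin genes, those of adult skeletal, smooth and non-muscle types, had a median difference below 0. Of 17 listed, 15 were measured and 8 passed the filter, with a median of -0.07, 6 below 0 and none past 1.5-fold. The non-muscle heavy chain gene Myh10 was at -0.23 and the smooth muscle heavy chain gene Myh11 at -0.21. The highest member was Myl12b, a non-muscle regulatory light chain gene, at 0.12. Adult skeletal heavy chain genes and the fast skeletal regulatory light chain gene Mylpf were under the filter.

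Thick filament partners had a median difference of 0.15 over 8 genes past the filter of 10 measured, with 6 above 0 and none past 1.5-fold. Myom1 and Myom2, whose M-band products crosslink myosin tails, were at 0.48 and 0.45. Lowest were Myom3, another M-band gene, at -0.26 and Mybpc3, the cardiac myosin binding protein C gene, at -0.15. Chaperones, assembly and turnover factors of myosin had a median of 0.07 over 8 genes. Among them the muscle RING finger genes Trim54 (0.32) and Trim55 (0.30) were highest, and Trim63, whose product tags myosin for degradation, was lowest at -0.28, followed by the chaperone gene Hsp90ab1 at -0.07.

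Genes that set light chain phosphorylation had a median difference of -0.06 over 8 genes past the filter of 9 measured, with 5 below 0. Ppp1cb, the catalytic subunit of myosin phosphatase, had the highest value, with levels of 10.89 on the lacZ-labelled array and 11.41 on the Mef2d-labelled array (difference 0.51). Ppp1r12c, a targeting subunit of that phosphatase, was at 0.24. The lowest value was that of the smooth muscle light chain kinase gene Mylk (-0.17). The cardiac light chain kinase gene Mylk3, named after its value was seen, had levels of 8.18 and 8.14.

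Transcription factors known to act on myosin genes had a median difference of 0.02 over 21 genes, with 13 above 0. Mef2d was the single member past 1.5-fold. Mef2c was at -0.19 and Mef2b at -0.06, and the listed Mef2a had no matched probe set. Pura and Purb, single-strand DNA binding proteins known as repressors of Myh6, lay on opposite sides, at 0.34 and -0.21. The thyroid hormone receptor genes Thra and Thrb were at 0.20 and 0.22, and the MCAT factor gene Tead1 at 0.24. Sox6, Thra, Thrb and Tead1 were chosen after their values were seen.

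Thin filament isoform genes had a median difference of 0.08 over 10 genes past the filter of 13 measured, and -0.03 over all 13. Both troponin I genes of the heart were among the highest, with Tnni1, the fetal and slow skeletal form, at 0.40 and Tnni3, the adult cardiac form, at 0.36. Skeletal alpha-actin (Acta1), a fetal gene that the stressed adult heart expresses again, was at -0.07, and cardiac troponin T (Tnnt2) at -0.12. None of these genes passed 1.5-fold.

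**Figure D4:**
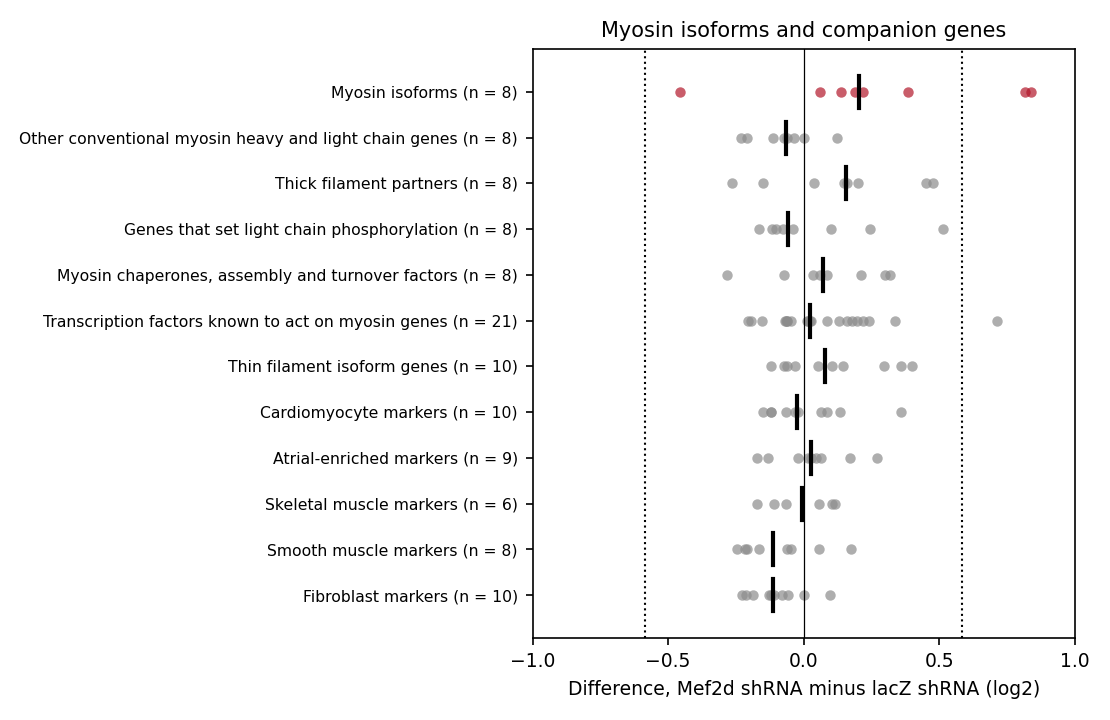
Difference between the arrays (log2, Mef2d-labelled array minus lacZ-labelled array) of each gene past the level filter, in red for the myosin isoforms and in grey for 11 companion and marker lists, with a black bar at each median and dotted lines at 1.5-fold. The myosin isoforms have a median of 0.20, and in the other lists the medians lie between -0.11 and 0.15, with Mef2d as the single gene past a dotted line.

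Markers of other muscle and stromal cells were set beside the members because Myh3 and Myl1 are also skeletal muscle genes and Myl7 an atrial gene. Of 18 skeletal muscle markers 16 were measured and 10 lay under the level filter, among them the myogenic regulators Myod1, Myog and Myf6. Another myogenic regulator, Myf5, passed the filter with levels of 5.10 and 5.03, and was named after its value was seen. Summed over all 16 measured markers, under and past the filter, the log2 levels were 82.0 on the lacZ-labelled array and 81.3 on the other. The 6 markers past the filter had a median difference of -0.01, from Ryr1 at -0.17 to Cacng1 at 0.12. The other members named by rule from this list were Casq1 at 0.10 and Pax7 at -0.11. Casq1 had the highest levels of the list, 9.92 on the lacZ-labelled array and 10.03 on the Mef2d-labelled array. Atrial-enriched markers had a median of 0.03 over 9 genes past the filter of 11 measured, and summed levels over all 11 of 76.5 and 77.0. Sln (0.27) and Gja5 (0.17) were their highest members, and Dkk3 (-0.17) and Kcna5 (-0.13) their lowest.

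Cardiomyocyte markers had a median difference of -0.03 over 10 genes, with 4 above 0, from Mybpc3 at -0.15 to Tnni3 at 0.36 and with Actn2 at 0.13. Their summed log2 levels were 108.5 and 108.6. Fibroblast markers were below 0 for 8 of 10 genes, with a median of -0.11 and summed levels of 99.1 on the lacZ-labelled array and 98.1 on the Mef2d-labelled array. The lowest of them were Pdgfra (-0.23) and Lum (-0.21), and the highest Dcn (0.10) and Col1a1 (0.00, with a sign that changed under other scalings). Smooth muscle markers were below 0 for 6 of 8 measured genes, with a median of -0.11 and summed levels of 66.8 and 66.1. Their lowest members were Lmod1 (-0.25) and Tagln (-0.22), and their highest Synpo2 (0.17) and Smtn (0.06). In such bulk RNA, fewer cells of a type and less RNA per cell cannot be told apart, and the part of these shifts in the myosin differences was not tested.

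Among 94 companion and marker genes past the filter, those most like each of the 3 members with the widest differences were found by the gap between log2 differences over the 2 arrays. For Myh3 and for Myl1 they were the same 3 genes, Mef2d, Ppp1cb and Myom1. The gaps to Myh3 were 0.11, 0.30 and 0.34, and those to Myl1 were 0.12, 0.32 and 0.36, so none of the 94 genes was as high as Myl1 or Myh3. For Myh6 the nearest were Trim63, Myom3 and Lmod1, with gaps of 0.18, 0.19 and 0.21. With 2 arrays a pattern is a single difference, so this likeness says no more than that these values lie closest.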

How the data were processed

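Gene expression was measured on 2 one-colour Affymetrix arrays of pooled RNA, labelled with biotin, with 1 array per group. The deposited values are log2 expression values made by the authors with RMA (background correction, quantile normalization and probe set summary) and the affy package (1.36.1), per the submitters' processing notes. Neither the probe set definition nor the genome build is stated in these sources. RMA gives no detection call. Every deposited value column was used.

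Probe sets were named by the platform annotation, in which no symbol had more than 1 probe set. Companion symbols absent from it were matched by gene identifier to an older symbol (4 genes). Of 125 companion and marker symbols in 11 lists, 115 were measured.

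Differences were computed with Python 3.11.15 and pandas 2.3.3 as the level on the Mef2d-labelled array minus that on the lacZ-labelled array, with no further normalization. A gene counted as higher or lower at 1.5-fold (0.58 on the log2 scale) if its mean level reached the 30th percentile. The threshold step was tested on simulated data, where recovery was required only for changes larger than those of the members. The members and lists were chosen with earlier results of these data known. By rule the named genes are all members, the MEF2 genes, the 2 highest and 2 lowest genes of each list and the 3 genes nearest to each widely differing member. Other genes given a value are marked as chosen after it was seen, except the neighbours of Myh3, named by position. A gene of the light chain phosphorylation list is not reported here. Promoter and microRNA sequences are RefSeq's, build GRCr8.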

Additional observations from a re-analysis of the deposited data

How the results depend on the processing

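All alternatives were planned. Under quantile normalization, median centring and subtraction of a loess trend, no member's difference moved by more than 0.035 on the log2 scale, and the median of all tested genes by at most 0.012. Of the 9 members, the sign of Myh8 changed (lowest -0.014, highest 0.0091), from a level under the filter. Myl1 and Myh3 stayed past 1.5-fold under all 3 scalings and without a level filter. The members counted as higher fell from 2 to 0 at 2-fold, and with a level filter at the median 1 was left, Myl1, because Myh3 was no longer tested. At 1.3-fold, 1 member was lower, Myh6. Beyond 3 robust SDs, Myh7, Myh3 and Myl1 were counted as higher. Of all tested genes, 98 were counted as higher, against 178 beyond 3 robust SDs, 9 at 2-fold and 408 at 1.3-fold. Lower genes numbered 62, against 30 with the level filter at the median, 287 at 1.3-fold and 5 at 2-fold. The single higher companion gene became 4 beyond 3 robust SDs, 5 at 1.3-fold and 0 at 2-fold. The median of the thin filament list was -0.030 without a level filter, and that of the skeletal muscle markers was 0.10 with the filter at the median, where Casq1 alone was left and the value is its own. With 1 array in each group none could be left out. No paired analysis was possible because the groups hold no repeated arrays. Low signal limits Myh8, whose levels lie under the filter, and Myh3 and Myh7b, whose levels lie in the lower part of the tested range.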
